A study of Caenorhabditis elegans with 11 samples.

Results

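prp-8 was knocked down in adults of the Caenorhabditis elegans strain SS104, which carries glp-4(bn2), and the worms were compared with SS104 adults on a gfp clone, the control for the RNAi treatment. There were 2 libraries, 1 for each clone, of the 11 in the study. Whole worms were sampled as 5-day adults, grown at 25 °C, after 72 h on the food bacterium OP50 and another 48 h on the RNAi clone. Another glp-4 library, from adults fed a prp-31 clone for as long, was used to show where the prp-8 library stood apart. All 3 libraries carry the glp-4 mutation, so no library of these adults has a normal germline. The sample titles give a larval stage, whereas the stage field gives adult, which was followed, and the titles of the 2 tables name glp-1 whereas their columns name glp-4. The other 8 libraries came from larvae of N2, the wild type, and of smg-1(r861), kept at 20 °C and fed clones for 24 h.

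The genes described are those the authors listed for glp-4 adults, 58 in a table of higher genes plus 88 in a table of lower genes, of 1106 entries in 6 such tables. The authors selected them by comparing the prp-8 and prp-31 libraries together with gfp, so the prp-8 values helped to choose them and the direction of each table is no finding. Levels are in FPKM, which scales fragment numbers by transcript length and by the mapped total. A fold is the ratio of FPKM + 1 between 2 libraries, which understates the change of genes with low values, and a percent of the gfp level is a ratio of the FPKM as deposited. Each group was 1 library, so the differences have no replicate check and were not tested. The labels state that every sample had more than a set number of reads, and the depth behind each value is otherwise unknown.

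PRP-8 is the large protein of the U5 small nuclear ribonucleoprotein that holds the catalytic centre of the spliceosome, and nearly all worm genes have introns. glp-4 encodes a valyl-tRNA synthetase, and in the bn2 mutant germ cells fail to proliferate at 25 °C, which is why such adults are used as worms with little germline. In a normal hermaphrodite the adult germline makes oocytes and stores in them the messenger RNAs of eggshell proteins and of RNA-binding proteins that pattern the embryo. Neither prp-8 nor any other RNAi target or mutated gene of the study is in the glp-4 tables, so the knockdown itself was not checked here.

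With prp-8 RNAi, 76 of the 88 genes in the lower table were at least 2-fold below gfp, and 15 of the 58 in the higher table were at least 2-fold above it. These are 52.1 percent and 10.3 percent of the genes of both tables, or 86.4 percent of the lower and 25.9 percent of the higher table taken alone. A list whose members lie in 1 table is read below against that table's share. The median log2 fold was −1.94 for lower genes, 0.75 for higher genes and −1.04 over both tables. The lower genes ran from −3.20 to −0.25 and the higher genes from −0.25 to 8.01. All 88 genes of the lower table were below gfp. Among the higher genes, 56 were above gfp, F14D7.10 was below it, and ZK822.10 was listed at 0 in both libraries. F14D7.10 had 13.5 FPKM under gfp and 11.2 under prp-8, whereas the authors' deposited table gives 1.66 FPKM for the pooled knockdowns and 0 for their control. The prp-31 library had medians of −0.49 for lower and 0.70 for higher genes, with 9 genes at least 2-fold lower and 18 at least 2-fold higher. Among genes with a public name, the 2-fold bound had cyp-33C1 (2.02-fold higher) and col-124 (2.12-fold) on its inner side and col-51 and dod-24 (both 1.91-fold) on its outer side. Among lower genes it passed between fbxc-51 (2.02-fold lower) and nhr-2 (2.04-fold) inside and dhs-8 (1.99-fold) and hsp-16.2 (1.93-fold) outside.

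**Figure D1:**
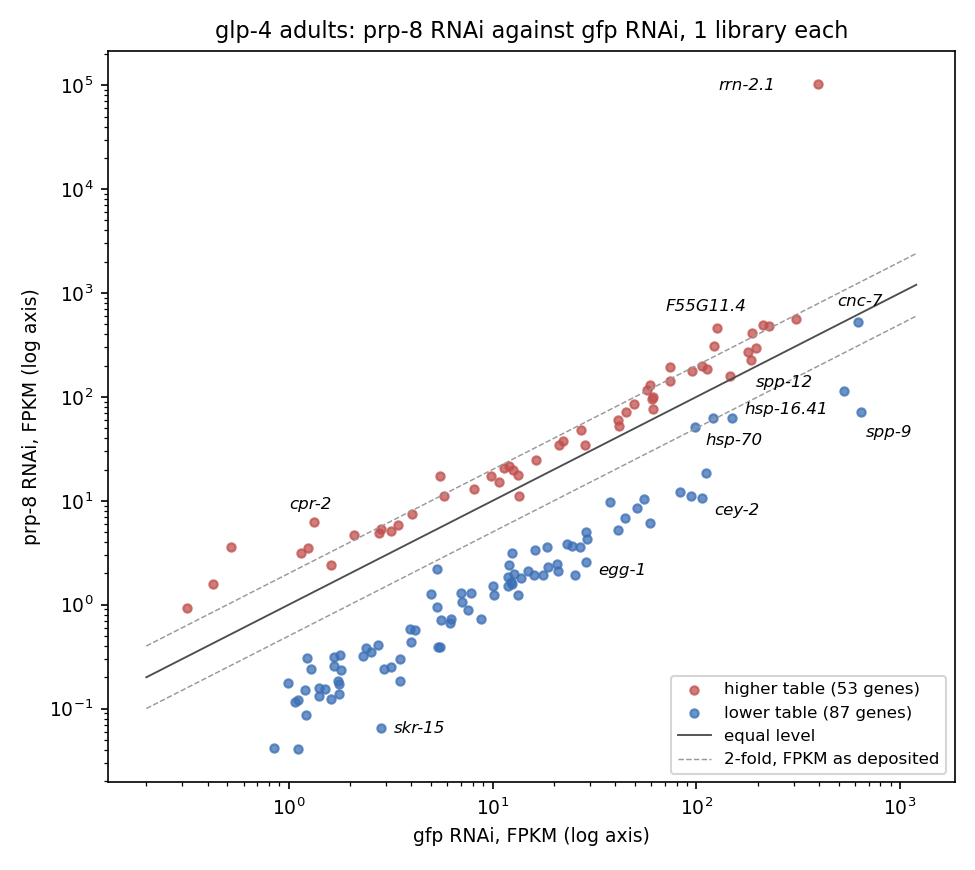
FPKM with prp-8 RNAi (vertical, log axis) against FPKM with gfp RNAi (horizontal, log axis) in glp-4 adults, 1 point per gene and 1 library per axis. The 87 lower-table and 53 higher-table genes without a 0 in either library are drawn, rrn-2.1 lies far above the others, and most lower genes form a band under the lower dashed 2-fold line, with hsp-70, hsp-16.41 and cnc-7 above the band.

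The listed lower genes kept a similar share of their gfp level with prp-8 RNAi over a wide range of levels. The authors chose them by low pooled knockdown values, which include prp-8, so the choice bears on these shares. Of the 88 lower genes, 54 had at least 5 FPKM with gfp. Their median level with prp-8 was 14.3 percent of gfp, with quartiles of 11.8 and 17.5 percent. Of these 54 genes, 42 kept between 8 and 20 percent, and 3 kept less (F53F8.3, perm-1 and F22B3.4, at 7.08, 7.15 and 7.66 percent). Another 4 kept between 20 and 30 percent, namely rnr-2, plk-3, spp-12 and gln-5. The remaining 5 kept more than 30 percent: dhs-8 (41.0), hsp-16.41 (42.01), hsp-16.2 (51.3), hsp-70 (52.4) and cnc-7 (83.9). With prp-31 RNAi the median of the 54 genes was 72.2 percent of gfp, with quartiles of 66.5 and 78.2 percent. The 34 genes under 5 FPKM with gfp had a median of 10.97 percent with prp-8 and 40.9 percent with prp-31, but 33 of them were under 1 FPKM with prp-8, where a percent is imprecise.

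**Figure D2:**
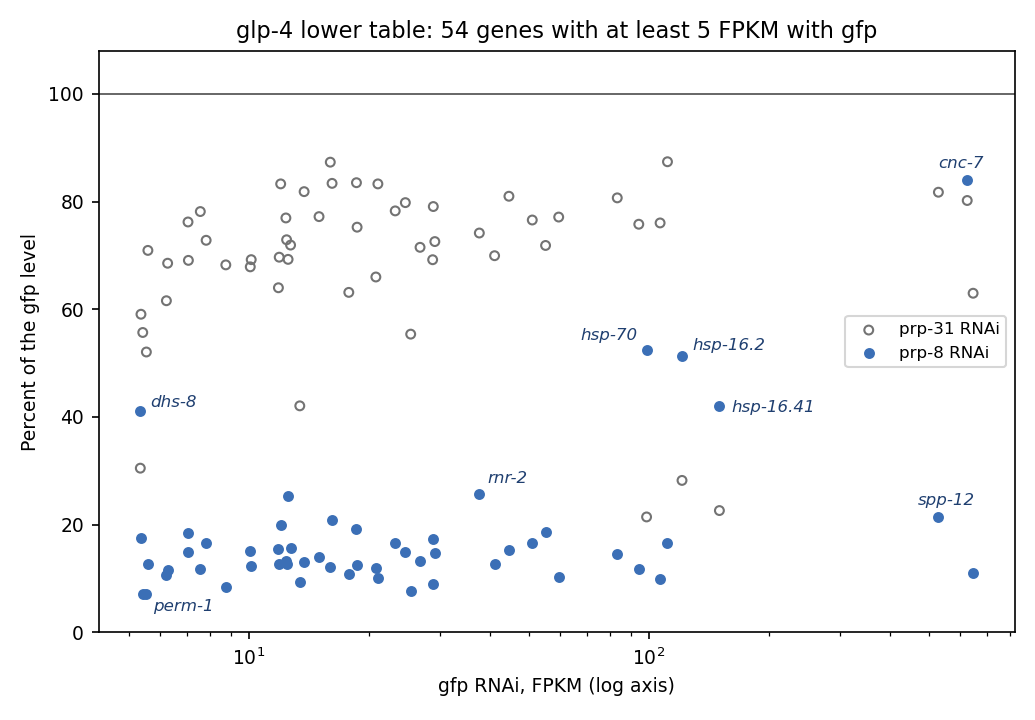
Level with prp-8 RNAi (filled) and prp-31 RNAi (open) as a percent of the gfp level (vertical) against the FPKM with gfp (horizontal, log axis) for the 54 genes of the lower table with at least 5 FPKM with gfp, 1 library per point. Most prp-8 points lie between 8 and 20 percent at all levels, most prp-31 points lie above them, and the labelled heat shock genes, dhs-8 and cnc-7 are the prp-8 points above 30 percent.

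Oocyte and germline genes made up the largest named group among the lower genes. All 14 listed genes of the oocyte and eggshell list were lower genes, and each was past 2-fold with prp-8, near the 86.4 percent of the whole lower table, so the count is not particular to them. Their median log2 fold was −2.59, with a range of 7.15 to 18.7 percent of the gfp level. With prp-31 the same genes kept 55.7 to 87.3 percent. Summed over the 14 genes, the level was 520 FPKM in the gfp library, 66.6 under prp-8 and 394 under prp-31 RNAi. Oocyte transcripts were thus detected in the gfp library, although germ cells proliferate poorly in this mutant at 25 °C. In bulk RNA, fewer germline cells and less RNA per cell cannot be told apart.

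Among genes of the eggshell and oocyte surface, cpg-2, a chondroitin proteoglycan of the eggshell, measured 83.3 FPKM in the gfp library, 12.1 in the prp-8 library and 67.2 in the prp-31 library. The related cpg-3 had 51.1, 8.51 and 39.1 FPKM in the same order. egg-1, an oocyte surface receptor needed for sperm entry, had 28.8, 2.57 and 19.9 FPKM (chromosome III, deposited interval 5728178 to 5730394). In each of the 3 genes the prp-8 library was the lowest and the gfp library the highest. rme-2, the receptor by which oocytes take up yolk, had 15.97, 1.95 and 13.9 FPKM, and perm-1, which is needed for the permeability barrier of the eggshell, 5.42, 0.388 and 3.02 FPKM. The yolk protein genes themselves, made in the intestine, are not in the glp-4 tables.

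Genes of maternal RNA-binding proteins had similar shares. The Y-box gene cey-2, which had the lowest log2 fold in the lower table, went from 107 FPKM with gfp to 10.7 with prp-8, a 9.22-fold lower value, and had 81.0 with prp-31 (chromosome I, deposited interval 5619567 to 5620668). Its relative cey-3 had 55.1, 10.3 and 39.6 FPKM. The zinc-finger gene pos-1, which controls translation in the early embryo, had 59.4, 6.16 and 45.8 FPKM, and spn-4, another RNA-binding regulator of embryonic fates, 41.1, 5.19 and 28.8 FPKM. With prp-8 these 4 genes lay between 10.01 and 18.7 percent of gfp, and with prp-31 between 69.9 and 77.1 percent. The Pumilio-family gene puf-5 had 21, 2.11 and 17.5 FPKM, and puf-11 was lower by 6.27-fold under prp-8 and by 1.48-fold under prp-31 RNAi. oma-1, a zinc-finger gene of oocyte maturation, had 13.7, 1.79 and 11.2 FPKM, and mex-6, which acts in embryo polarity, 12.4, 1.64 and 9.52 FPKM. gld-3, a KH-domain partner of a cytoplasmic poly(A) polymerase, had 7.05, 1.05 and 4.87 FPKM, and meg-1, a P granule gene, 5.59, 0.711 and 3.96 FPKM. The germline RNA regulation list had 6 genes in the tables (pos-1, puf-5, puf-11, oma-1, mex-6 and gld-3), and all were at least 2-fold lower with prp-8, at 10.05 to 14.95 percent of gfp. That count is near the 86.4 percent of the whole lower table, so it is not particular to them. All but gld-3 are also in the oocyte and eggshell list.

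The small RNA pathway list had 2 listed genes, both Argonautes and both lower. wago-1 measured 18.6 FPKM under gfp, 3.55 under prp-8 and 15.5 under prp-31 RNAi, and hrde-1, the nuclear Argonaute of heritable silencing, 12, 2.40 and 9.99 FPKM. A further gene, deposited under the name hpo-24, is named alg-5 in RefSeq, an Argonaute name; it had 2.41, 0.383 and 1.60 FPKM. All 3 were at least 2-fold lower with prp-8 and less than 2-fold lower with prp-31. So were most lower genes, as 76 of the 88 passed 2-fold with prp-8 and 9 with prp-31.

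Cell cycle genes were few and all lower. Of the cell cycle and replication list, 4 genes were in the lower table and none in the higher, and all 4 passed 2-fold with prp-8, near the 86.4 percent of the whole lower table. cyb-2.2, a mitotic cyclin B gene, kept 10.9 percent of its gfp level with prp-8 and 63.1 percent with prp-31. cdc-25.2, a phosphatase gene that activates cyclin-dependent kinase, kept 14.9 and 59.3 percent. plk-3, of the polo-like kinases, kept 25.3 and 69.3 percent, and rnr-2, the small subunit of ribonucleotide reductase, 25.7 and 74.2 percent. plk-3 was also the single listed gene of the meiosis list and rnr-2 that of the DNA damage list. mei-2, a subunit of the katanin of the meiotic spindle, was chosen after its values were seen and had 10.1, 1.25 and 7.01 FPKM. No histone, apoptosis, splicing or RNA decay gene of the lists was in the glp-4 tables.

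Genes known from the early embryo were lower at low levels. All but nhr-2, which is also named above for its place next to 2-fold, were chosen after their values were seen. vet-1, vet-2 and vet-6, named for very early transcripts of the embryo, had 1.61, 1.81 and 1.104 FPKM with gfp and 0.124, 0.234 and 0.122 with prp-8. With prp-31 they had 0.906, 0.710 and 0.564 FPKM. nhr-2, a nuclear hormone receptor gene expressed in early embryos, had 1.67, 0.310 and 0.784 FPKM in the order gfp, prp-8 and prp-31. sdz-28, named as a zygotic gene that depends on SKN-1, had 1.07, 0.116 and 0.249 FPKM, and sepa-1, a P granule-associated substrate of autophagy in embryos, 1.41, 0.133 and 0.778 FPKM. In each of these 6 genes the prp-8 library was the lowest, yet all 6 were under 1 FPKM there, and folds on the FPKM + 1 scale were 1.86 to 2.32.

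Genes of the ubiquitin ligase adaptors were listed on the lower side alone. The F-box and related list had 9 genes in the lower table and none in the higher, and 7 of the 9 passed 2-fold with prp-8, near the share of the whole lower table. The Skp1-related genes link F-box proteins to cullins. Of these skr-7 measured 8.75 FPKM under gfp, 0.732 under prp-8 and 5.97 under prp-31 RNAi, and skr-15 2.84, 0.0644 and 1.096 FPKM. The neighbouring genes skr-8 and skr-9 had almost the same gfp level, 3.53 and 3.52 FPKM, and 0.302 and 0.184 with prp-8; skr-10 had 3.19 and 0.249. The 5 genes kept 2.27 to 8.56 percent of gfp with prp-8 and 38.6 to 68.2 percent with prp-31. skr genes are alike in sequence, so reads could be shared between them and the values of single copies are uncertain. The F-box gene fbxa-215 had 12.4, 1.58 and 9.05 FPKM, and fbxb-78 was listed at 0 with both knockdowns and at 0.477 FPKM with gfp. The list also holds fbxc-51 and sdz-28, both given above, and sdz-28 and fbxb-78 were its members under 2-fold.

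**Figure D3:**
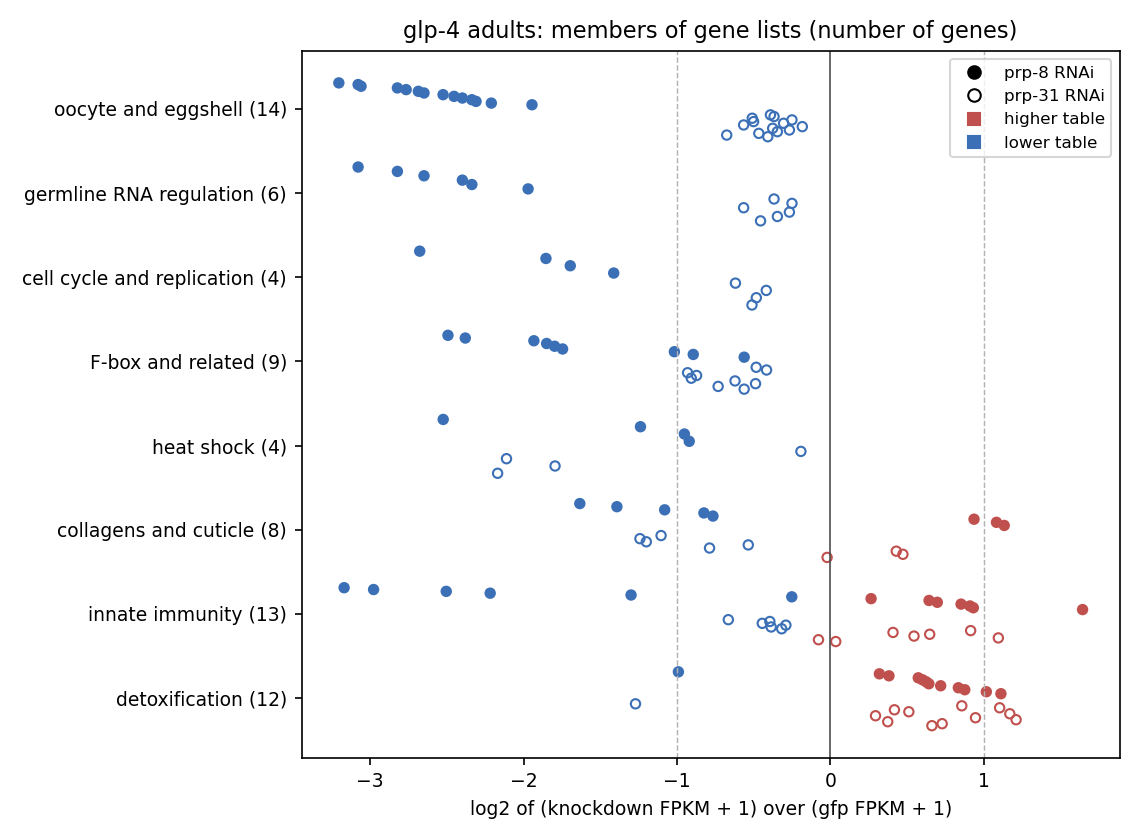
log2 fold over gfp (horizontal, FPKM + 1 scale) for members of 8 gene lists in glp-4 adults, with prp-8 RNAi filled and prp-31 RNAi open, coloured by the table that lists the gene; numbers of genes are in parentheses and dashed lines mark 2-fold. Oocyte and germline members lie between −3.20 and −1.95 with prp-8 and nearer to 0 with prp-31, whereas 3 of 4 heat shock genes lie lower with prp-31.

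Among the 8 lower genes whose prp-8 value lay above that of prp-31 were 3 of the 4 heat shock genes. The others were dhs-8, cnc-7, dpy-13, col-133 and Y71A12B.11. hsp-70, a chaperone gene, measured 98.6 FPKM under gfp, 51.6 under prp-8 and 21.1 under prp-31 RNAi. The small heat shock genes hsp-16.2 and hsp-16.41, adjacent on chromosome V, had 121, 62.0 and 34.1 FPKM and 150, 63.0 and 33.9 FPKM. In all 3 the prp-8 value lay between those of gfp and prp-31, and hsp-70 was 2.38-fold higher with prp-8 than with prp-31. sip-1, a small heat shock protein gene known from oocytes and embryos, had 111, 18.5 and 97.2 FPKM, so its order was that of the oocyte genes. For prp-8 the list's median log2 fold was −1.095, and for prp-31 it was −1.95. The hsp-16 genes are alike in sequence, and reads could be shared with other copies.

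Genes of secreted and immune proteins were on both sides. The innate immunity list had 7 higher and 6 lower genes, with 1 at least 2-fold higher and 5 at least 2-fold lower with prp-8. In the whole tables, 25.9 percent of the higher and 86.4 percent of the lower genes passed 2-fold. The lean to the lower side is thus not particular to this list. On the lower side spp-9, a saposin-like gene with the highest gfp level of the lower table, measured 646 FPKM under gfp, 70.9 under prp-8 and 407 under prp-31 RNAi (chromosome X, deposited interval 11487788 to 11488178). Another saposin-like gene, spp-12, had 529, 113 and 432 FPKM. clec-87 and clec-88, of the C-type lectins, had 94.3, 11.1 and 71.4 FPKM and 29.1, 4.31 and 21.1 FPKM. cnc-7, of a family of antimicrobial peptide genes, had 624, 524 and 501 FPKM, so that both knockdowns were close to gfp. The authors' deposited table gives it 374 FPKM for the pooled knockdowns and 752 for their control, so the pooled knockdown value lies below both single libraries and the values disagree. hpo-24, which has an Argonaute name in RefSeq, completes the 6 and is in this list by its deposited name.

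On the higher side of the immune list, cpr-2, a cathepsin B-like protease gene, measured 1.33 FPKM under gfp, 6.29 under prp-8 and 1.39 under prp-31 RNAi. dod-24, a gene known from pathogen responses, had 74.2, 142 and 70.2 FPKM. For these genes prp-8 was above the other libraries, while prp-31 and gfp were 1.02-fold apart for cpr-2 and 1.06-fold for dod-24. Both were thus listed mainly through their prp-8 values, so this difference is no independent finding. clec-258 had 106, 200 and 228 FPKM, ilys-3, an invertebrate-type lysozyme gene, 61.2, 99.7 and 96.3 FPKM, and lys-4, another lysozyme gene, 60.4, 94.8 and 80.4 FPKM. clec-218 had 186, 224 and 352 FPKM, and clec-227 0.427, 1.57 and 1.08 FPKM. Apart from cpr-2, the 7 genes were 1.201-fold to 1.91-fold higher with prp-8.

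Detoxification genes were nearly all on the higher side, with small folds. The list had 11 genes in the higher table and dhs-8 in the lower, and 2 of the 11 were at least 2-fold higher with prp-8, against 25.9 percent of the whole higher table. The 11 had a median log2 fold of 0.64 under prp-8 and 0.73 under prp-31 RNAi. The 6 cytochrome P450 genes, of enzymes that oxidise foreign compounds and lipids, were 1.25-fold to 2.16-fold higher with prp-8 and 1.58-fold to 2.31-fold with prp-31. cyp-13A6 measured 59.2 FPKM under gfp, 129 under prp-8 and 94.2 under prp-31 RNAi, and cyp-33C1 1.24, 3.53 and 2.71 FPKM. The adjacent genes cyp-35B1 and cyp-35B2 had 113, 187 and 218 FPKM and 5.77, 11.1 and 14.7 FPKM, with the prp-31 library the highest in both. The UDP-glucuronosyltransferase genes ugt-61 and ugt-47 were 1.56-fold and 1.49-fold higher with prp-8, and pgp-1, an ABC transporter gene, 1.83-fold. cth-1, named for cystathionine gamma-lyase, had 180, 273 and 257 FPKM. It lies between str-7 and F44G3.2, which RefSeq names argk-1, and all 3 of these neighbouring genes were in the higher table, at 1.51-fold to 1.66-fold with prp-8.

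Cuticle genes were in both tables. The higher table had 3 genes deposited under collagen names. col-80 had 189 FPKM under gfp, 415 under prp-8 and 186 under prp-31 RNAi. col-124 had 228, 483 and 316 FPKM, and col-51 1.15, 3.12 and 1.90 FPKM. col-80 was 2.23-fold higher with prp-8 than with prp-31. Y69H2.14, deposited without a gene name and named col-42 in RefSeq, had 307, 560 and 371 FPKM. It was 1.82-fold higher with prp-8 and is not counted in the lists, which go by deposited names. The 5 members in the lower table, like col-51, had low levels, from 0.846 FPKM for dpy-10 to 3.92 for dpy-14 with gfp. With prp-8 the 5 genes kept 4.98 to 25.2 percent of gfp and with prp-31 9.47 to 32.9 percent. dpy-13 and col-133 were slightly lower with prp-31 (0.157 and 0.288 FPKM) than with prp-8 (0.257 and 0.308 FPKM). Their prp-8 values were all under 1 FPKM. Of the hypodermis markers, which are collagens of this list, 3 were higher and 2 lower genes, and of the intestine markers lys-4 and cpr-2 were higher and spp-9 and spp-12 lower. The part of tissue makeup in these values was not tested. Among the lists with fewer genes, str-7, the single neuron marker, and cpt-3, the single lipid metabolism gene, named for carnitine palmitoyltransferase, were higher, with log2 folds of 0.73 and 0.52. The insulin and daf-16 list had dod-24, scl-11 and scl-20, of secreted proteins, all in the higher table, at 178 to 192 percent of gfp. Of these, 0 were at least 2-fold higher with prp-8, against 25.9 percent of the whole higher table. scl-11 had 9.78, 17.4 and 24.1 FPKM with gfp, prp-8 and prp-31 and scl-20 95.6, 176 and 112.4 FPKM, so they differed in which knockdown was higher.

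**Figure D4:**
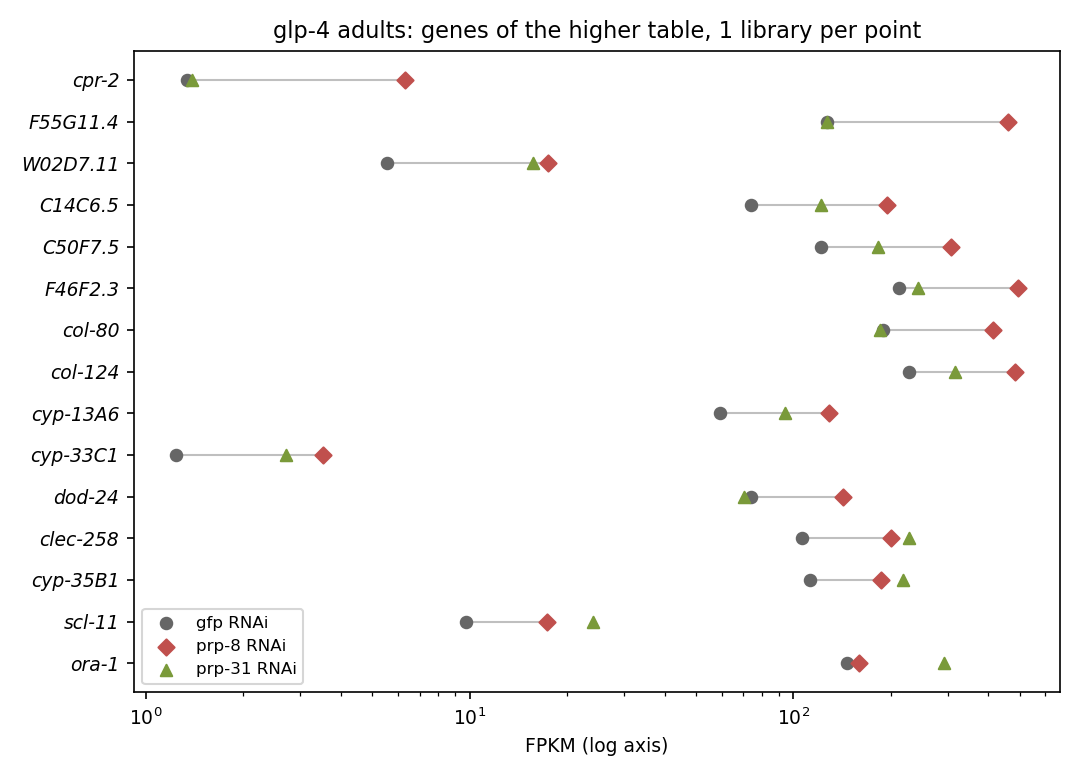
FPKM (horizontal, log axis) of 15 genes of the higher table in the gfp, prp-8 and prp-31 libraries of glp-4 adults, 1 library per point. The genes from cpr-2 to dod-24 have their highest value with prp-8 RNAi, and the last 4, clec-258, cyp-35B1, scl-11 and ora-1, with prp-31 RNAi.

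Many genes belonged to no list. They were 32 in the higher table, 9 of them past 2-fold with prp-8, and 39 in the lower table, 35 of them past 2-fold. These counts are near the shares of the whole tables, 25.9 percent of the higher and 86.4 percent of the lower genes. Of the unlisted genes, those without a public name in the tables were chosen after their values were seen. F55G11.4, named mbug-1 in RefSeq, measured 127 FPKM under gfp, 461 under prp-8 and 127 under prp-31 RNAi. F46F2.3 had 213, 493 and 242 FPKM and F01D5.5 57.1, 115.3 and 57.8 FPKM, in the same order. In each of these genes prp-31 was near gfp, so the gene was listed mainly through its prp-8 value. A higher value with prp-8 alone is thus no independent finding. K09E9.4 had 0.523, 3.63 and 1.55 FPKM, at levels where a fold is imprecise, and the authors' pooled control for it was 0. C50F7.5 had 121, 308 and 183 FPKM, C14C6.5 74.2, 195 and 122 FPKM, and W02D7.11 5.55, 17.5 and 15.7 FPKM. For these 3 the prp-31 value lay between those of gfp and prp-8. Among lower genes, F22B3.4, named gfat-2 in RefSeq, had 25.4, 1.94 and 14.05 FPKM; an enzyme of this name makes hexosamine sugars from glutamine. gyg-2, a glycogenin gene also chosen after its values were seen, had 23.2, 3.84 and 18.2 FPKM. The carbohydrate and central metabolism list had 2 genes, both glutamine synthetase genes. Both were past 2-fold lower with prp-8, as were most lower genes. gln-6 had 28.9, 5.01 and 22.8 FPKM and gln-5 16.1, 3.37 and 13.4 FPKM. nasp-2, related to a histone chaperone, had 44.6, 6.82 and 36.2 FPKM, and ttr-50, of the transthyretin-related genes, 13.4, 1.25 and 5.64 FPKM. In the authors' deposited table, 12 of the glp-4 genes had a q-value below 0.05 in the pooled comparison, among them F55G11.4, C50F7.5, C14C6.5, cyp-13A6, clec-258, spp-9, hsp-16.41, F22B3.4 and ttr-50, all at 0.0495.

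The 3 listed genes of RNAs that normally lack a poly(A) tail were highest in the prp-8 library, although poly(A) RNA had been enriched. rrn-2.1, a ribosomal RNA gene, measured 397 FPKM under gfp, 102770 under prp-8 and 3716 under prp-31 RNAi. By the definition of the unit and the deposited interval of 153 bases, this is 0.00608 percent of mapped fragments under gfp, 1.57 percent under prp-8 and 0.0568 percent under prp-31 RNAi. The length that the software used for this gene is not known here, so these percents are approximate. The rRNA genes are repeated in the genome, so the value of a single copy is uncertain. The small nucleolar RNA Y74C9A.6 was listed at 0 with gfp, at 37.9 FPKM with prp-8 and at 1.68 with prp-31, and the small nucleolar RNA Y67A10A.14 at 0, 9.02 and 0 FPKM. The part of these RNAs in the other values of the library was not tested.

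Set directly against prp-31 RNAi, the prp-8 library was at least 2-fold lower for 55 genes (37.7 percent of both tables) and at least 2-fold higher for 9 (6.16 percent). Of the 55 genes, 54 were in the lower table, where 79 of 88 genes were lower with prp-8 than with prp-31. The largest differences in this direction were those of cey-2 (7.03-fold), pos-1 (6.55-fold), clec-87 (5.99-fold), puf-5 (5.95-fold), egg-1 (5.86-fold), spp-9 (5.67-fold), cpg-2 (5.21-fold) and F22B3.4 (5.11-fold). The genes on the other side were rrn-2.1, both small nucleolar RNAs, F55G11.4 (3.60-fold), cpr-2 (3.05-fold), hsp-70 (2.38-fold), col-80 (2.23-fold), F46F2.3 (2.03-fold) and dod-24 (2.01-fold). gba-4, a glucocerebrosidase gene, was 1.80-fold higher with prp-8 than with prp-31. Among the higher genes, 33 were above and 25 below prp-31, so that neither clone gave the higher values throughout. At least a 2-fold higher value in both knockdowns was seen for 3 genes, rrn-2.1, Y74C9A.6 and W02D7.11. At least a 2-fold lower value in both was seen for 6, dpy-13, dpy-14, col-125, ttr-50, hsp-16.41 and Y71A12B.11. Both knockdowns were set against the same gfp library, and the values of both helped to choose the genes. Of the 88 lower genes, 76 were past 2-fold with prp-8 and 9 with prp-31. Genes can thus be listed mainly through their prp-8 values, so lower values with prp-8 than with prp-31 among them are no independent finding. The same holds for higher genes with prp-31 near gfp, such as F55G11.4, F46F2.3, cpr-2, dod-24 and col-80.

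Some of these genes were also listed for larvae. Of the glp-4 genes, 12 were also in the N2 tables (8.22 percent of the glp-4 genes and 2.53 percent of the 475 N2 genes) and 11 in the smg-1 tables (7.53 percent and 2.27 percent of 485). Together these were 20 genes, 3 of them in both strains. The larvae differ from the adults in stage, temperature and time on the clone as well as in genotype, and these cannot be told apart. C50F7.5 was 2.52-fold higher with prp-8 in glp-4 adults, 20.6-fold in N2 and 7.25-fold in smg-1. F55G11.4 was 3.61-fold, 4.81-fold and 3.61-fold higher in the same order. For C14C6.5 the values were 2.61-fold in glp-4 and 4.45-fold in smg-1, and for rrn-2.1 258.1-fold and 8.58-fold. In N2 larvae prp-8 RNAi gave a 2.54-fold lower value for spn-4 and a 3.04-fold lower value for wago-1, against 6.80-fold and 4.30-fold in glp-4, and in smg-1 cey-3 was 2.64-fold lower against 4.96-fold. hpo-24 was 2.46-fold lower in glp-4 and 2.29-fold in N2. cpg-2 went the other way in larvae, from 5.21 to 17.8 FPKM in N2 and from 8.23 to 21.7 in smg-1, against 83.3 to 12.1 in glp-4. hsp-70 went from 3.40 to 9.57 FPKM in smg-1, against 98.6 to 51.6 in glp-4, so its gfp level was far higher in the adults. ora-1, chosen after its values were seen, had 146.1 and 159 FPKM in glp-4 and 26.05 and 6.98 in N2, and Y75B8A.3, named cest-12 in RefSeq, 28.5 and 34.3 FPKM in glp-4 and 45.5 and 8.32 in N2. Of the genes shared with N2, 3 were above gfp in both, 6 below in both and 3 in opposite directions, and of those shared with smg-1 the numbers were 7, 2 and 2.

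**Figure D5:**
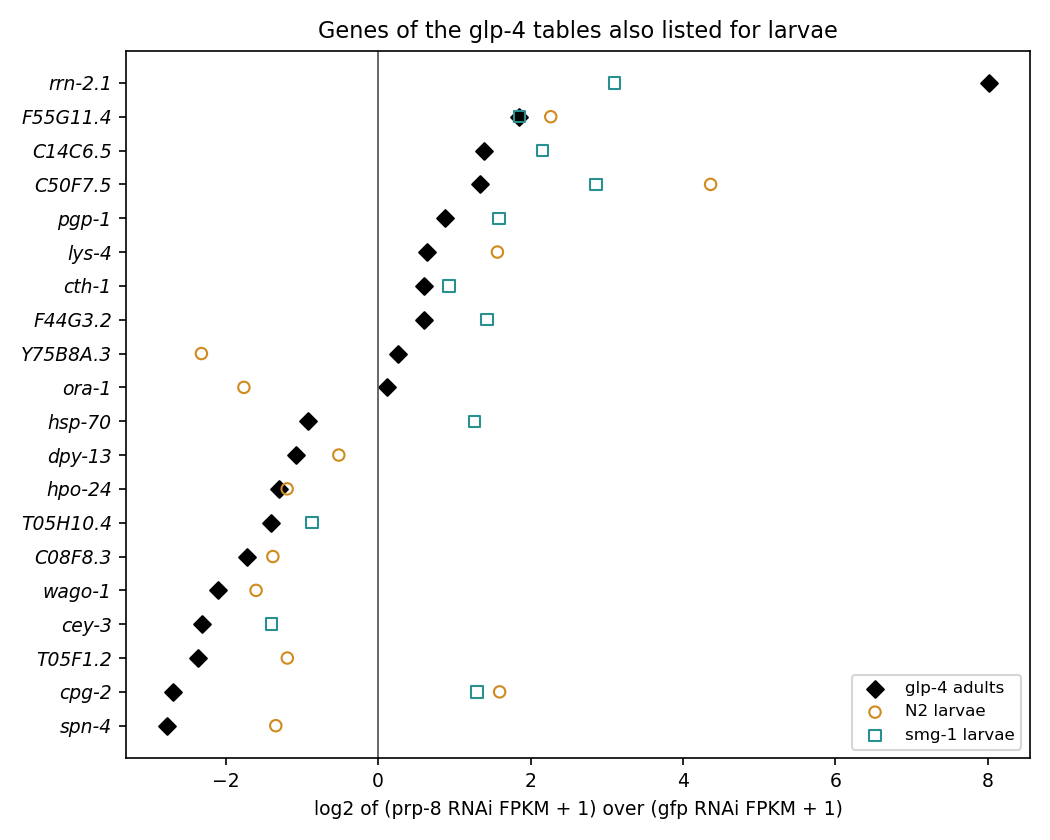
log2 fold of prp-8 RNAi over gfp RNAi (horizontal, FPKM + 1 scale) for the 20 genes of the glp-4 tables that are also in an N2 or smg-1 table, in glp-4 adults (filled), N2 larvae (circles) and smg-1 larvae (squares), 1 library per side. cpg-2 lies below 0 in the adults and above 0 in N2 and smg-1 larvae. hsp-70, which has no N2 point, lies below 0 in the adults and above 0 in smg-1 larvae.

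By chromosome, the lower table had 21 genes on chromosome I (23.9 percent of the table, where 14.4 percent of annotated protein-coding genes lie), 13 on V (14.8 percent against 25.0 percent) and 6 on X (6.82 percent against 13.7 percent). The higher table had 22 genes on chromosome V (37.9 percent against 25.0 percent), 15 on IV (25.9 percent against 16.43 percent) and 2 on chromosome III (3.45 percent against 13.2 percent). These shares describe the lists the authors selected and were not tested. Pairs of listed genes with no other protein-coding gene between them were skr-8 and skr-9 and hsp-16.2 and hsp-16.41 in the lower table, and cyp-35B1 and cyp-35B2, F12A10.7 and F12A10.9, F57H12.6 and ora-1, str-7 and cth-1, and cth-1 and F44G3.2 in the higher. Members of each pair were in the same table. No source used here says whether reads were counted by strand. In the annotation, egg-1, spn-4, rnr-2, clec-87, clec-88, hsp-70, col-80 and col-124 are among the genes that overlap another protein-coding gene, so part of their values could come from it.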

How the data were processed

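Poly(A)-enriched RNA was sequenced in pairs of 73 bp reads, per the labels' protocols. Cufflinks and Cuffdiff were used, per the submitters' processing notes; the sources used here name no versions, aligner, build or annotation. The deposited tables, per the file headers, hold FPKM for each library, FPKM for the pooled knockdowns and their gfp control, the authors' pooled comparison as log2 fold, p-value and q-value, and a test statistic, a deposited score that was not used. The deposited log2 fold is a placeholder for 9 of the genes and was not used.

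From single-library FPKM, log2 ratios were computed with a pseudocount of 1 FPKM, and genes past 2-fold were counted. Groups of 1 library allow no test. A gene with 0 can be a failed estimate; 6 genes had one. The members and the 33 gene lists were chosen with earlier results of these data known, and 13 lists had no gene in the tables: targets and mutated genes, sperm, apoptosis, splicing, RNA decay, histones, unfolded protein response, hedgehog-related, proteasome, ribosome, muscle, somatic gonad and coelomocyte and pharynx. Genes were named by a rule, among those with a public name and no 0: in each table the 12 with the largest fold, the 8 that differed most from prp-31 in each direction, up to 6 members of each list with at least 3 genes in a table and all of some smaller lists, up to 10 shared with larvae, those next to 2-fold, and any at least 1.5-fold against its table (there were none). Others are said to be chosen later or fill out a list. Names were matched by locus tag to RefSeq for 144 of the genes, and overlaps were taken from Ensembl release 115. Alternatives were other pseudocounts, filters, the scale of the pooled columns and the authors' q-value. Computing used Python 3.11.15 with pandas 2.3.3, numpy 2.4.6 and, for plots, matplotlib 3.10.9, and the code was tested on simulated data.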

Additional observations from a re-analysis of the deposited data

Results flagged for a closer look

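The prp-8 effect on cpg-2 and hsp-70 had opposite directions in glp-4 adults and larvae, at 1.5-fold or more on each side with 1 library per group, and the difference was not tested. For cpg-2 the log2 fold in the adults minus that in larvae was −4.28 for N2 and −3.98 for smg-1. For hsp-70, which is not listed for N2, it was −2.19 for smg-1. Stage, temperature and time on the clone differ between these strains.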

How the results depend on the processing

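No paired analysis was possible because every group had 1 library and the labels carry no replicate numbers. The count of lower genes at least 2-fold below gfp was 42 with a pseudocount of 5 FPKM, against 76 with 1 FPKM, and the median log2 fold of that table was −0.98 with 5 FPKM and −2.69 with 0.1 FPKM. Genes at least 2-fold apart between prp-8 and prp-31 numbered 64, and 40 with 5 FPKM. Asking also for a q-value below 0.05 in the authors' deposited comparison left 6 higher and 4 lower genes. Under the other alternatives tried, the higher count ranged from 11 to 21, the lower count from 64 to 85, the count apart from prp-31 from 61 to 87 and the higher median from 0.59 to 0.89. On the scale of the pooled columns, which adds 0.15 to a log2 fold before the pseudocount, 21 higher and 76 lower genes passed 2-fold. No named gene or list median turned its direction under the other pseudocounts or this scale; 17 of 62 named genes moved by over 1.5-fold with 0.1 FPKM and 28 with 5 FPKM. Low levels limit the vet, skr, dpy and collagen genes of the lower table, whose folds depend on the pseudocount.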
